A study of Sus scrofa with 12 samples.

Results

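The cell cycle and mitosis genes of porcine aortic valve interstitial cells (paVICs) were described in RNA sequencing libraries from cells treated with lysophosphatidylcholine (LPC) and dantrolene. The set was a list of 58 genes, and its members were the genes of the count table whose symbol was on the list. A symbol was found for 54 of the 58, out of 31908 genes in the table, and 52 of them had enough counts to be tested among 13216 genes in all. CDC25C and PRC1 had too few counts for a test. AURKA was not analysed here, and CCNE1, CDK2 and GTSE1 were found through a separate table of gene names and are given apart from the counts.

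Valve interstitial cells build and maintain the matrix of the heart valves. LPC, a phospholipid found in lipoproteins that have been oxidized, is used to make them calcify in culture. Dantrolene blocks ryanodine receptors, the channels that release calcium from the endoplasmic reticulum. The 12 libraries fell into 4 groups of 3, all from wild-type pig cells treated for 24 h in medium with little serum. All 4 groups received the solvents, 0.6% DMSO and 0.1% ethanol (EtOH), and the vehicle group received these alone. The LPC group also received 10 μM LPC, the dantrolene group 60 μM dantrolene, and the LPC + dantrolene group both agents at these doses. Replicates 1, 2 and 3 came from separate isolations, each pooled from several hearts, and every isolation gave 1 library to each group. The cells were primary, were expanded in culture before treatment, and came from valves whose endothelium had been removed.

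Cells pass from G1 into S phase when cyclin D and cyclin E kinases phosphorylate the RB family of pocket proteins, which releases E2F factors to transcribe the genes of DNA replication. Later in the cycle the factors MYBL2 and FOXM1 turn on genes for mitotic kinases, the spindle, the kinetochore and cytokinesis. Fibroblasts in little serum mostly rest outside the cycle. The share of dividing cells was not measured here, and which cells the transcripts came from was not tested.

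Total counts ranged from 16489684 to 24105935 per library, and 3 counts corresponded to 0.114 to 0.186 CPM (counts scaled to a common library size). All 12 markers fixed for valve interstitial cells and fibroblasts passed the filter, and their summed level was 55719 to 105387 CPM. The 10 endothelial markers summed to 173 to 198 CPM in the vehicle libraries, 126 to 165 with LPC, 141 to 142 with dantrolene and 123 to 133 with both, and PECAM1 was at 23.7 to 44.2 CPM. The 10 macrophage and leukocyte markers summed to 13.8 to 28.8 CPM, with PTPRC, CD163, LYZ and CD3E at 0 in every library, and 6 cardiomyocyte markers summed to 0.175 to 2.00 CPM. The summed endothelial level was thus higher in every vehicle library than in any treated library, and its part in the results below was not tested. LPC + dantrolene replicate 2 stood apart, since 66 tested genes were at 0 there with at least 10 counts in each of the other libraries, against 0 to 9 such genes in any other library. CDK1, CENPA, CENPF, TOP2A and ASPM were at 0 counts in that library, and 21 of the 52 members had their lowest level there.

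Genes of the kinetochore, condensin and spindle role groups made up most of the members that rose with LPC, and no member was called lower. Compared to vehicle, 11 of 52 members (21.2%) rose and 0 fell with LPC, against 8.54% of all tested genes that rose and 0.144% that fell (edgeR's quasi-likelihood test, Benjamini-Hochberg adjusted p under 0.05). The genes that rose were CDK6, RBL1, MAD2L1, CENPE, CENPF, TOP2A, SMC2, SMC4, ANLN, ECT2 and PLK4. In 21 members (40.4%) every LPC library was above every vehicle library, against 16.6% of all genes, and 1 member, CDC20, lay wholly below, against 10.6%. Of all genes 8.69% were called in either direction. The members were chosen with earlier results of these data known, and the part of that choice in these shares was not tested. This holds for every count of members below. Of 115 cell cycle genes outside the list, 10.4% rose and 0.870% fell with LPC. The median log2 fold change of the members was 0.13, against −0.18 over all genes. In bulk libraries a larger share of dividing cells and more RNA per cell, dividing or not, cannot be told apart, and neither was tested. The count was 7 without LPC replicate 2, 18 without LPC + dantrolene replicate 2, and 18 when the fit held the LPC and vehicle libraries alone. Over all genes 687, 1692 and 1615 were called in turn, against 1148 in the fit of all 12 libraries.

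With dantrolene, 7 members rose and 7 fell compared to vehicle, which was 13.5% in each direction, against 7.54% of all genes that rose, 1.26% that fell and 8.80% in either direction. RBL1, MAD2L1, CENPE, SMC2, SMC4, ECT2 and PLK4 rose. E2F1, FOXM1, MCM2, MCM3, PLK1, BIRC5 and CDC20 fell. All dantrolene libraries lay below all vehicle libraries in 16 members (30.8%) and above them in 8 (15.4%), against 11.0% and 16.1% of all genes. The median log2 fold change of the members was −0.12, against −0.11 over all genes. Without dantrolene replicate 2 the counts were 5 higher and 3 lower, and without LPC + dantrolene replicate 2, which entered the shared estimate of the spread, 21 members were called. Over all genes 429 and 1799 were called in turn, against 1163 in the fit of all 12 libraries. When libraries were scaled by total counts alone, 8 rose and 4 fell.

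With LPC + dantrolene, 6 members rose and 6 fell compared to vehicle, against 6.23% of all genes that rose, 0.900% that fell and 7.14% in either direction. RBL1, CENPE, SMC2, SMC4, ECT2 and PLK4 rose, and E2F1, MCM2, MCM3, MCM5, BIRC5 and CDC20 fell. All LPC + dantrolene libraries lay below all vehicle libraries in 14 members (26.9%) and above them in 7 (13.5%), against 5.74% and 4.71% of all genes. The median log2 fold change was −0.17, against −0.08 over all genes. These 3 comparisons share their vehicle libraries, so their lists are given side by side and their overlap was not tested. This count depended most on single libraries. It was 23 without LPC + dantrolene replicate 2, 7 and 4 without LPC + dantrolene replicates 1 and 3, and 5 and 4 without vehicle replicates 2 and 3. Over all genes the counts were 2099, 563, 508, 544 and 578 in turn, against 943 in the fit of all 12 libraries. With the isolation as a block 5 members rose and 1 fell, and with the compared groups alone 3 rose and 0 fell. Over all genes 618 and 553 were called in these fits. Scaled by total counts alone, 7 rose and 1 fell, and with RLE size factors 6 rose and 3 fell.

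**Figure D1:**
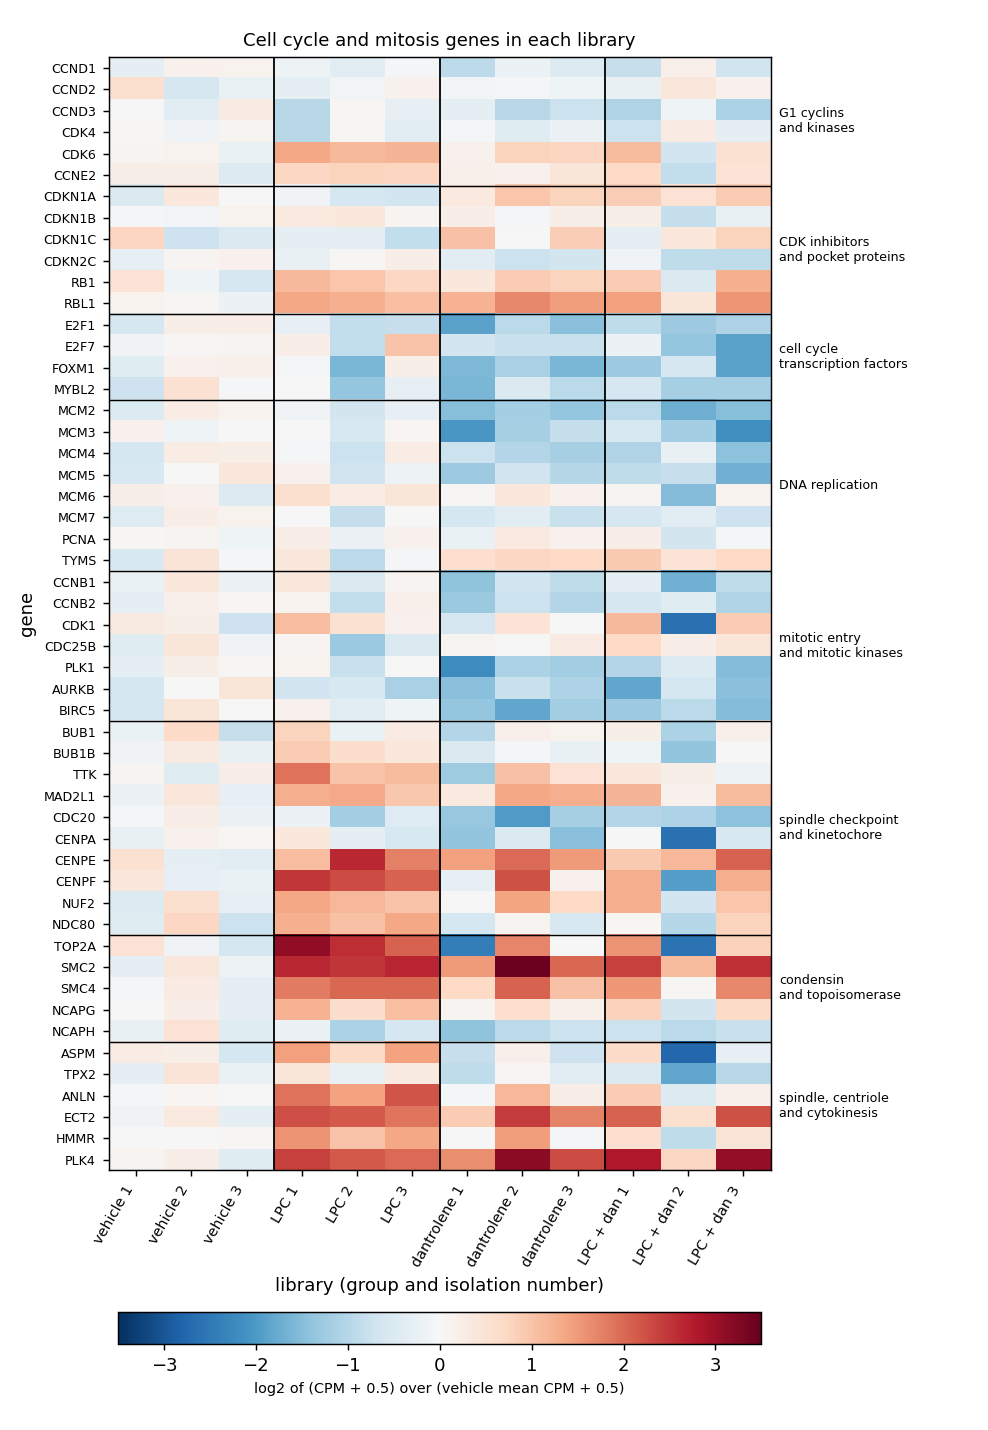
Heat map of the 52 tested cell cycle and mitosis genes (vertical axis, by role) in the 12 libraries (horizontal axis), coloured by the log2 ratio of CPM + 0.5 to the vehicle mean CPM + 0.5. SMC2, SMC4, TOP2A, ECT2, ANLN and PLK4 are red in the LPC libraries, most replication and transcription factor genes are blue in the libraries with dantrolene, and LPC + dantrolene replicate 2 is pale or blue for many genes that are red in the other libraries of its group.

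Of the 6 G1 cyclins and kinases, 1 rose with LPC, against 8.54% of all genes, and 0 were called with dantrolene or with both agents. CCND3, the D-type cyclin with the highest level of its group, was at 253, 194 and 304 CPM in the vehicle libraries, 127, 263 and 207 with LPC, 196, 127 and 148 with dantrolene and 120, 224 and 117 with both. The groups overlapped, and no comparison with vehicle passed the test (adjusted p = 0.282 to 0.662). CDK6, a partner kinase of the D-type cyclins, was at 9.35, 9.52 and 7.32 CPM with vehicle, 23.2, 19.9 and 20.4 with LPC, 9.74, 15.5 and 15.1 with dantrolene and 19.5, 5.34 and 12.7 with both. Every LPC library was above every other library. The log2 fold change with LPC was 1.28 ± 0.36 (SE), a 2.42-fold rise (adjusted p = 0.0102), against 0.62 ± 0.36 with dantrolene (adjusted p = 0.419) and 0.52 ± 0.36 with both (adjusted p = 0.634). The call was lost without vehicle replicate 3 (adjusted p = 0.0642), LPC replicate 1 (0.0705) or LPC replicate 2 (0.0544). CCND1, CCND2, CDK4 and CCNE2, a cyclin E, were not called in any comparison, with log2 fold changes against vehicle from −0.51 (CCND1 with dantrolene) to 1.06 (CCNE2 with LPC). CCNE1 and CDK2, matched by their identifiers, were not called either, with values from −0.53 (CDK2 with both agents) to −0.07 (CCNE1 with both agents).

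Among the inhibitors of cyclin-dependent kinases and the pocket proteins, RBL1 rose in every treated group. RBL1, a relative of the retinoblastoma protein that binds E2F factors, was at 4.58, 4.32 and 3.54 CPM with vehicle, 11.4, 10.6 and 9.10 with LPC, 10.3, 14.6 and 12.2 with dantrolene and 12.05, 5.72 and 13.1 with both. All treated libraries were above all vehicle libraries. The log2 fold changes were 1.3196 ± 0.37 with LPC (adjusted p = 0.00943), 1.58 ± 0.37 with dantrolene (0.00164) and 1.31 ± 0.37 with both (0.0125). The dantrolene call was kept in all 19 alternatives. The LPC call was lost without vehicle replicate 3 (0.0677) or LPC replicate 1 (0.0523). The call with both agents was lost without vehicle replicates 2 or 3 or LPC + dantrolene replicates 1 or 3 (0.0564 to 0.172), and with the compared groups alone (0.0586). RB1 itself was 1.97-fold higher on average with LPC, with no overlap, but did not pass (adjusted p = 0.0725).

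CDKN1A, the inhibitor that p53 induces, had the highest level of its group. It was at 279, 515 and 395 CPM with vehicle, 365, 258 and 247 with LPC, 504, 776 and 687 with dantrolene and 721, 562 and 736 with both. Every library with dantrolene was above every LPC library, and the vehicle libraries lay between and overlapped the LPC and dantrolene groups. The log2 fold change against vehicle was −0.45 ± 0.33 with LPC, 0.73 ± 0.33 with dantrolene and 0.76 ± 0.33 with both agents, and none passed the test (adjusted p = 0.571, 0.208 and 0.197). The last 2 passed with total counts alone (0.0466 and 0.0451) and without LPC + dantrolene replicate 2 (0.0359 and 0.0177). The log2 difference of LPC + dantrolene from LPC was 1.21 ± 0.33 (adjusted p = 0.0715), and that of dantrolene from LPC, a comparison added after the data were seen, was 1.18 ± 0.33 (adjusted p = 0.12). Both passed without LPC + dantrolene replicate 2 (0.00757 and 0.0129) and with DESeq2's Wald test (0.00786 and 0.0188), and the first also with at least 10 counts required in every library (0.0437). CDKN1B, CDKN1C and CDKN2C, further inhibitors, were not called in any comparison, with log2 fold changes against vehicle of −0.60 (CDKN2C with both agents) to 0.73 (CDKN1C with dantrolene).

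Among the 4 cell cycle transcription factors, 0 were called with LPC, 2 fell with dantrolene and 1 fell with both agents. The shares of all genes that fell were 1.26% with dantrolene and 0.900% with both. E2F1, an activator of the genes of S phase, was at 9.01, 15.9 and 16.2 CPM with vehicle, 11.07, 7.33 and 7.56 with LPC, 3.39, 6.86 and 4.64 with dantrolene and 7.21, 5.40 and 6.17 with both. The libraries with dantrolene all lay below the vehicle libraries and the LPC libraries. E2F1 fell with dantrolene (log2 fold change −1.46 ± 0.37, adjusted p = 0.00448) and with both agents (−1.13 ± 0.37, adjusted p = 0.0448), and with LPC its value was −0.66 ± 0.37 (adjusted p = 0.401). The dantrolene call was lost without vehicle replicate 3 (0.057) or dantrolene replicate 1 (0.0608), and with total counts alone (0.0528). The call with both agents was kept in 3 of 19 alternatives, and was lost under the isolation block (0.129) and without any 1 of 10 libraries (adjusted p = 0.0519 to 0.314), that is, all but vehicle replicate 1 and dantrolene replicate 2.

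FOXM1, which drives mitotic transcription, was at 2.10, 3.39 and 3.43 CPM with vehicle, 2.87, 0.652 and 3.50 with LPC, 0.657, 1.07 and 0.655 with dantrolene and 0.947, 1.80 and 0.451 with both. The libraries of both groups with dantrolene were below the vehicle libraries. Its log2 fold change was −1.88 ± 0.64 with dantrolene (adjusted p = 0.0473) and −1.48 ± 0.63 with both agents (adjusted p = 0.191). The first call was kept in 5 of 18 alternatives, and was lost under the isolation block (0.119) and without any 1 of 9 libraries (0.0512 to 0.219), which were all the vehicle and dantrolene libraries, LPC replicates 1 and 3 and LPC + dantrolene replicate 1. MYBL2 was at 31.0, 75.0 and 48.8 CPM with vehicle, 52.3, 20.1 and 42.6 with LPC, 16.8, 36.3 and 26.4 with dantrolene and 34.5, 22.8 and 22.7 with both. Its groups overlapped and it was not called (log2 fold change −0.96 ± 0.35 with dantrolene, adjusted p = 0.077). E2F7, a repressor of the E2F family, was not called in any comparison. The median log2 fold change of the 4 factors was −1.25 with dantrolene and −1.25 with both agents, against −0.38 with LPC.

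**Figure D2:**
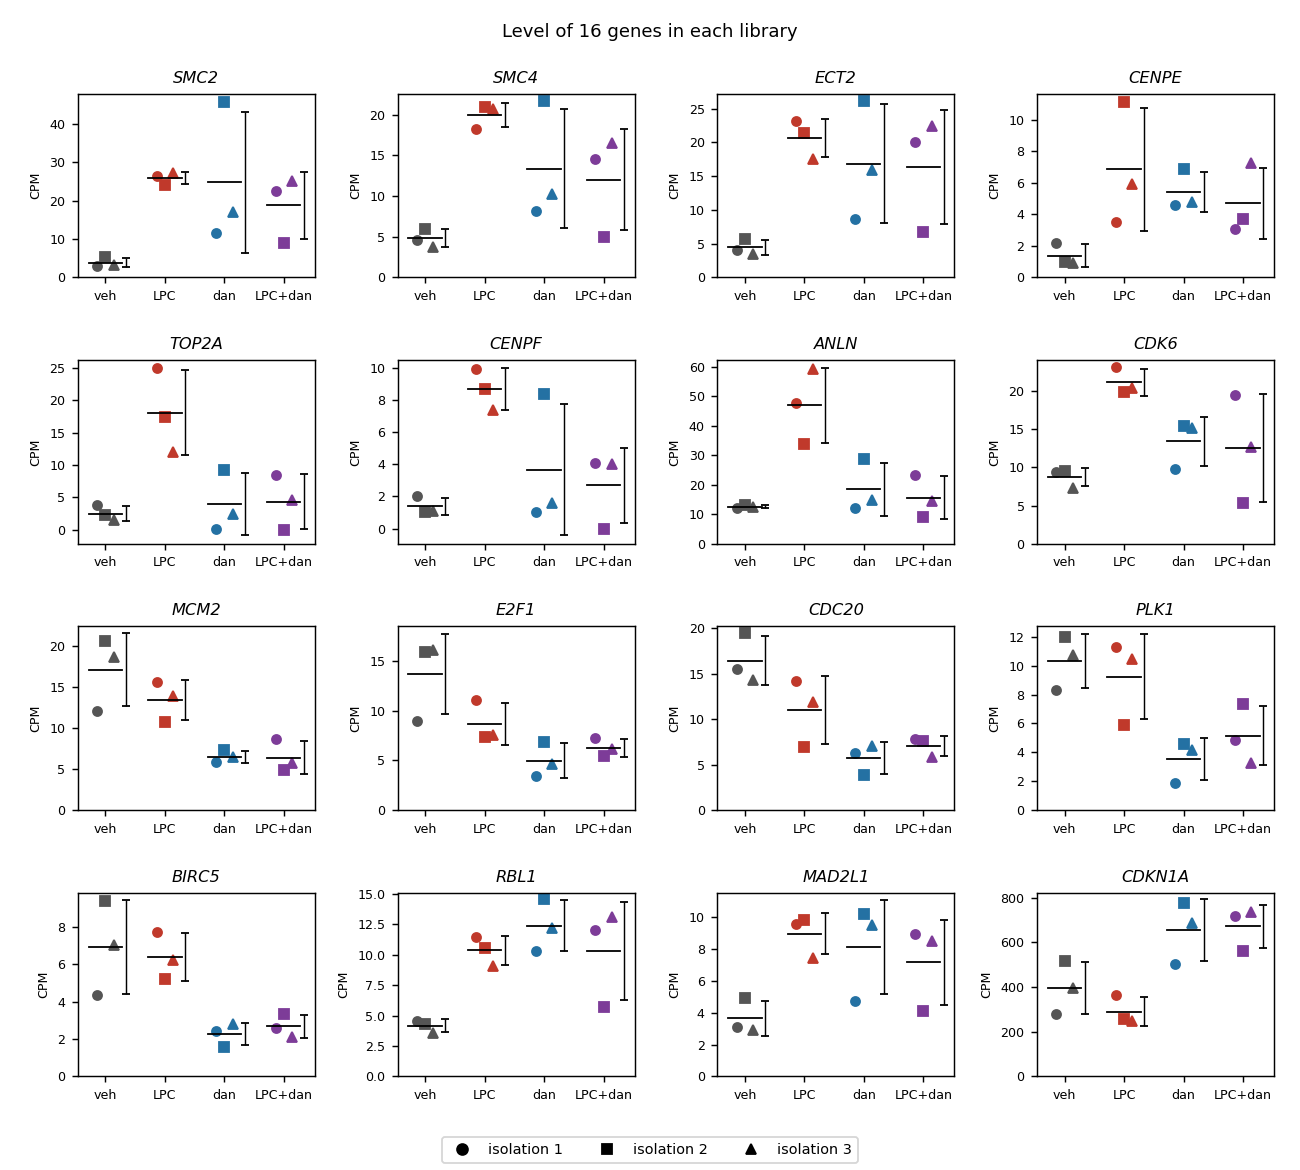
CPM (vertical axis, linear) of 16 genes by group (horizontal axis: vehicle, LPC, dantrolene, LPC + dantrolene), with a symbol for each isolation, a line at the group mean and a bar of 1 SD beside it (n = 3). The LPC libraries of SMC2, SMC4, ECT2, TOP2A and ANLN are above all vehicle libraries, and the libraries with dantrolene of MCM2, E2F1, CDC20, PLK1 and BIRC5 are below all vehicle libraries.

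Of the 8 replication genes, 0 were called with LPC, 2 fell with dantrolene and 3 fell with both agents. The shares of all genes that fell were 1.26% with dantrolene and 0.900% with both. MCM2, a subunit of the MCM helicase that unwinds DNA at the origins, was at 12.1, 20.6 and 18.7 CPM with vehicle, 15.6, 10.7 and 13.9 with LPC, 5.80, 7.28 and 6.44 with dantrolene and 8.63, 4.85 and 5.72 with both. The 6 libraries with dantrolene were all below the 6 without it. MCM2 fell 2.62-fold with dantrolene (log2 fold change −1.39 ± 0.36, adjusted p = 0.00444) and 2.67-fold with both agents (−1.42 ± 0.36, adjusted p = 0.00407). The dantrolene call was kept in all 19 alternatives, and the other in all but the fit of the compared groups alone (0.0655). Its value with LPC was −0.35 ± 0.35 (adjusted p = 0.662), and LPC + dantrolene differed from LPC by −1.07 ± 0.36 (adjusted p = 0.234).

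MCM3, another subunit, was at 12.3, 9.87 and 10.98 CPM with vehicle, 11.01, 7.33 and 11.6 with LPC, 2.30, 4.61 and 6.003 with dantrolene and 7.37, 4.54 and 2.11 with both. It fell with dantrolene (log2 fold change −1.36 ± 0.40, adjusted p = 0.0154) and with both agents (−1.24 ± 0.40, adjusted p = 0.0351), with no overlap with vehicle. The first call was lost without vehicle replicate 1 or dantrolene replicates 1 or 2 (0.0774 to 0.187), and the second without any vehicle library, LPC replicates 1 or 2 or LPC + dantrolene replicate 3 (0.0615 to 0.485). Both were lost with total counts alone (0.137 and 0.212). The second was also lost with RLE size factors (0.0531), DESeq2's Wald test (0.0976) and the compared groups alone (0.206). With the isolation as a block, the adjusted p-values of MCM3 were 0.062 and 0.107.

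MCM5 was at 14.4, 21.1 and 27.6 CPM with vehicle, 23.4, 12.7 and 18.7 with LPC, 8.38, 12.8 and 10.4 with dantrolene and 11.2, 11.9 and 6.17 with both. Both groups with dantrolene lay below vehicle, and MCM5 was called with both agents (log2 fold change −1.11 ± 0.35, adjusted p = 0.0338) and not with dantrolene (−0.9998 ± 0.35, adjusted p = 0.0584). That call was kept in 8 of 19 alternatives, was lost with the isolation as a block (0.102), and was lost without vehicle replicates 2 or 3, LPC replicate 2, dantrolene replicate 1 or LPC + dantrolene replicates 1 or 3 (0.0534 to 0.422). MCM6, the replication gene with the highest level, was at 46.6, 44.9 and 28.6 CPM with vehicle, 59.5, 47.7 and 54.2 with LPC, 41.0, 52.3 and 44.5 with dantrolene and 42.8, 13.6 and 43.4 with both. It was not called, and with LPC its libraries lay above vehicle (log2 fold change 0.43 ± 0.34, adjusted p = 0.607). MCM4, MCM7, the sliding clamp PCNA and the thymidylate synthase TYMS were not called in any comparison. MCM4 lay wholly below vehicle with dantrolene (log2 fold change −1.0005 ± 0.35, adjusted p = 0.0603), and MCM7 was at −0.59. Differences between the subunits were not tested.

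Of the 7 tested genes of mitotic entry and mitotic kinases, 0 were called with LPC, 2 fell with dantrolene and 1 fell with both agents. The shares of all genes that fell were 1.26% with dantrolene and 0.900% with both. In each group with dantrolene 5 of the 7 lay wholly below vehicle, against 11.0% of all genes with dantrolene and 5.74% with both agents. PLK1, a kinase of mitotic entry and spindle assembly, was at 8.30, 11.97 and 10.8 CPM with vehicle, 11.3, 5.86 and 10.5 with LPC, 1.86, 4.57 and 4.15 with dantrolene and 4.84, 7.33 and 3.26 with both. It fell 2.92-fold with dantrolene (log2 fold change −1.54 ± 0.40, adjusted p = 0.00466), a call that was lost without dantrolene replicate 1 (0.0801), and was at −1.01 ± 0.39 with both agents (adjusted p = 0.122). BIRC5, the survivin subunit of the chromosomal passenger complex, was at 4.39, 9.40 and 7.03 CPM with vehicle, 7.74, 5.21 and 6.22 with LPC, 2.41, 1.60 and 2.78 with dantrolene and 2.58, 3.35 and 2.11 with both. All libraries with dantrolene were below all libraries without it, and BIRC5 fell with dantrolene (−1.62 ± 0.43, adjusted p = 0.00672) and with both agents (−1.37 ± 0.43, adjusted p = 0.031).

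The dantrolene call of BIRC5 was lost without vehicle replicate 2 (0.0944) or dantrolene replicate 2 (0.0952), and the call with both agents without vehicle replicates 2 or 3 or LPC + dantrolene replicates 1 or 3 (0.111 to 0.254) and with the isolation as a block (0.0899). The call with both agents was also lost with total counts alone (0.0996) and with the compared groups alone (0.15). CDC25B, a phosphatase that activates CDK1, was at 13.6, 24.8 and 17.0 CPM with vehicle, 19.8, 7.22 and 12.8 with LPC, 19.7, 18.4 and 22.5 with dantrolene and 30.4, 21.8 and 24.9 with both. It was not called in any comparison, and LPC + dantrolene lay wholly above LPC (log2 difference 0.95 ± 0.35, adjusted p = 0.35). CCNB1, CCNB2, CDK1 and AURKB, the B-type cyclins, their kinase and the kinase partner of BIRC5, were not called. GTSE1, a G2 and S phase protein matched by its identifier, fell with dantrolene (log2 fold change −2.03 ± 0.51, adjusted p = 0.00354). It was at 2.38, 6.77 and 6.57 CPM with vehicle and at 0.821, 1.83 and 1.15 CPM with dantrolene.

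The spindle checkpoint and kinetochore genes split. Of 10 tested, 3 rose with LPC, 2 rose and 1 fell with dantrolene, and 1 rose and 1 fell with both agents. Over all genes 8.54%, 7.54% and 6.23% rose and 0.144%, 1.26% and 0.900% fell. The median log2 fold change of the 10 was 1.35, 0.22 and 0.20 in turn. CENPE, the motor that carries chromosomes to the spindle equator, was at 2.19, 0.993 and 0.930 CPM with vehicle, 3.48, 11.13 and 5.91 with LPC, 4.60, 6.86 and 4.75 with dantrolene and 3.05, 3.73 and 7.27 with both. All treated libraries were above all vehicle libraries. It rose 4.92-fold with LPC (log2 fold change 2.30 ± 0.47, adjusted p = 0.000188), 3.89-fold with dantrolene (1.96 ± 0.47, adjusted p = 0.00186) and 3.38-fold with both agents (1.76 ± 0.47, adjusted p = 0.0069). The first 2 calls were kept in all 19 alternatives each, and the third was lost without vehicle replicates 2 or 3 or LPC + dantrolene replicate 3 (0.063 to 0.202). With the compared groups alone the third was lost too (0.0529).

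CENPF, a kinetochore protein of the outer plate, was at 2.00, 1.05 and 1.10 CPM with vehicle, 9.94, 8.69 and 7.36 with LPC, 1.04, 8.34 and 1.58 with dantrolene and 4.05, 0 and 4.01 with both. Dantrolene replicate 2 stood with the LPC libraries, and the other dantrolene libraries stood with vehicle. CENPF rose 6.18-fold with LPC (log2 fold change 2.63 ± 0.58, adjusted p = 0.000645), a call that was lost without LPC replicate 2 (0.0611) and with DESeq2's Wald test (0.23). Its value with dantrolene, 1.40 ± 0.57 (adjusted p = 0.136), became −0.09 without dantrolene replicate 2.

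MAD2L1, a checkpoint protein, was at 3.10, 4.91 and 2.91 CPM with vehicle, 9.58, 9.83 and 7.46 with LPC, 4.71, 10.2 and 9.50 with dantrolene and 8.94, 4.1002 and 8.47 with both. It rose with LPC (log2 fold change 1.30 ± 0.39, adjusted p = 0.0199) and with dantrolene (1.16 ± 0.39, adjusted p = 0.0464), where 1 library overlapped vehicle. The LPC call was lost without vehicle replicates 1 or 3 or LPC replicates 1 or 2 (0.0858 to 0.115) and with the isolation as a block (0.0553). The dantrolene call was lost without any vehicle library, LPC replicates 1 or 2 or dantrolene replicates 2 or 3 (0.0519 to 0.286). It was also lost with the block (0.114) and with no filter on low counts (0.065).

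CDC20, which activates the anaphase-promoting complex once the checkpoint is satisfied and had the highest level of the group, went down. It was at 15.5, 19.4 and 14.3 CPM with vehicle, 14.2, 6.95 and 11.9 with LPC, 6.30, 3.81 and 7.09 with dantrolene and 7.84, 7.58 and 5.82 with both, so all treated libraries lay below vehicle. CDC20 fell 2.87-fold with dantrolene (log2 fold change −1.52 ± 0.36, adjusted p = 0.00208) and 2.32-fold with both agents (−1.21 ± 0.36, adjusted p = 0.0207), and with LPC it was at −0.57 ± 0.36 (adjusted p = 0.489). The first call was lost without dantrolene replicate 2 (0.0606). The second was lost without vehicle replicates 2 or 3 or LPC + dantrolene replicates 1 or 3 (0.0511 to 0.192) and with the isolation as a block (0.0552). It was also lost with total counts alone and with the compared groups alone (0.111 each). BUB1, BUB1B, TTK, CENPA, NUF2 and NDC80 were not called, and with LPC the libraries of BUB1B, TTK, NUF2 and NDC80 lay wholly above vehicle with log2 fold changes of 0.71 to 1.85.

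The largest log2 fold changes with LPC were those of TOP2A and SMC2, in the group of condensin and topoisomerase genes. SMC2 and SMC4, the paired ATPase subunits of condensin, which compacts chromosomes, lie at chr1:245409559-245459032 and chr13:100078149-100120907 of Sscrofa11.1 in the RefSeq gene table. SMC2 was at 2.96, 5.20 and 3.31 CPM with vehicle, 26.5, 24.0 and 27.1 with LPC, 11.7, 45.8 and 17.0 with dantrolene and 22.4, 8.88 and 25.2 with both. The LPC libraries were close together and the dantrolene libraries wide apart, and all treated libraries were above vehicle. SMC2 rose 6.78-fold with LPC (log2 fold change 2.76 ± 0.40, adjusted p = 9.35e-07), 6.51-fold with dantrolene (2.702 ± 0.40, adjusted p = 2.36e-06) and 4.93-fold with both agents (2.30 ± 0.39, adjusted p = 2.3e-05), and each call was kept in all 19 alternatives.

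SMC4 was at 4.63, 5.96 and 3.78 CPM with vehicle, 18.2, 20.9 and 20.7 with LPC, 8.10, 21.7 and 10.3 with dantrolene and 14.6, 4.97 and 16.5 with both. Its order of libraries was much like that of SMC2, with dantrolene replicate 2 the highest and LPC + dantrolene replicate 2 the lowest of the treated libraries. SMC4 rose with LPC (log2 fold change 2.06 ± 0.38, adjusted p = 4.35e-05), with dantrolene (1.49 ± 0.38, adjusted p = 0.00423) and with both agents (1.33 ± 0.38, adjusted p = 0.0137). The LPC call was kept in all 19 alternatives. The dantrolene call was lost without dantrolene replicate 2 (0.255), and the call with both agents without vehicle replicates 1 or 3, LPC replicate 2 or LPC + dantrolene replicates 1 or 3 (0.0578 to 0.202) and with the isolation as a block (0.0529). The call with both agents was also lost with the compared groups alone (0.0722).

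TOP2A, the topoisomerase that untangles sister chromatids (chr12:22001300-22028452), was at 3.77, 2.22 and 1.45 CPM with vehicle, 24.9, 17.4 and 11.9 with LPC, 0.0547, 9.26 and 2.46 with dantrolene and 8.42, 0 and 4.66 with both. The LPC libraries were the 3 highest of the 12. Dantrolene replicate 1 held 1 count of TOP2A, against 243 and 45 in the other dantrolene libraries. LPC + dantrolene replicate 2 held 0, against 160 and 93 in the others of its group. TOP2A rose 7.23-fold with LPC (log2 fold change 2.85 ± 0.60, adjusted p = 0.000293), a call that was lost without LPC replicate 2 (0.0738) and with DESeq2's Wald test (0.386), and was at 0.67 ± 0.58 with dantrolene (adjusted p = 0.669). The dantrolene value was −0.98 without dantrolene replicate 2. NCAPG and NCAPH, the other condensin subunits listed, were not called. NCAPG was at 1.07 ± 0.41 with LPC (adjusted p = 0.097) and NCAPH at −0.64 ± 0.44 (adjusted p = 0.544), and differences between the condensin subunits were not tested.

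Among the genes of the spindle, the centriole and cytokinesis, 3 of 6 rose with LPC, 2 rose with dantrolene and 2 rose with both agents. The gene listed as PLK4, whose name is uncertain as given below, is among those that rose in each comparison. Over all genes 8.54%, 7.54% and 6.23% rose in turn. ECT2, which activates RhoA to set the cleavage furrow (chr13:111248215-111310746), was at 4.05, 5.72 and 3.49 CPM with vehicle, 23.1, 21.3 and 17.5 with LPC, 8.60, 26.1 and 15.9 with dantrolene and 20.1, 6.71 and 22.4 with both. All treated libraries were above all vehicle libraries. It rose 4.67-fold with LPC (log2 fold change 2.22 ± 0.39, adjusted p = 1.38e-05), 3.82-fold with dantrolene (1.93 ± 0.38, adjusted p = 0.000175) and 3.71-fold with both agents (1.89 ± 0.38, adjusted p = 0.000257), and each call was kept in all 19 alternatives.

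ANLN, the actin-binding scaffold of the contractile ring (chr18:37647952-37710939), was at 12.1, 13.0 and 12.3 CPM with vehicle, 47.8, 33.6 and 59.1 with LPC, 11.9, 28.8 and 14.7 with dantrolene and 23.4, 8.88 and 14.3 with both. Every LPC library was above every other library, and the groups with dantrolene overlapped vehicle. ANLN rose 3.76-fold with LPC (log2 fold change 1.91 ± 0.36, adjusted p = 5.15e-05), a call kept in all 19 alternatives, against 0.57 ± 0.35 with dantrolene (adjusted p = 0.472) and 0.32 ± 0.35 with both agents (adjusted p = 0.866).

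The gene listed as PLK4, the kinase that starts centriole duplication, was at 4.53, 5.08 and 3.02 CPM with vehicle, 24.2, 20.5 and 18.1 with LPC, 14.0, 41.5 and 22.6 with dantrolene and 32.5, 7.33 and 39.3 with both. All treated libraries were above all vehicle libraries. It rose 4.96-fold, 6.18-fold and 6.26-fold with LPC, dantrolene and both (adjusted p = 1.25e-05, 3.41e-06 and 5.32e-06), and each call was kept in all 19 alternatives. Its identifier, however, carries the symbol of the neighbouring gene HSPA4L in the table of gene names, so which of the 2 genes these counts come from is uncertain. The same holds for CDC25C, whose identifier carries the symbol GFRA3. The gene listed as PLK4 enters every count of members that rose against vehicle, and the interaction count. ASPM, TPX2 and HMMR, which organise spindle poles and microtubules, were not called. PRC1, which bundles the microtubules of the midzone, had 7, 7 and 14 counts with vehicle, 17, 6 and 0 with LPC and 0 in all 6 libraries with dantrolene, and was not tested.

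**Figure D3:**
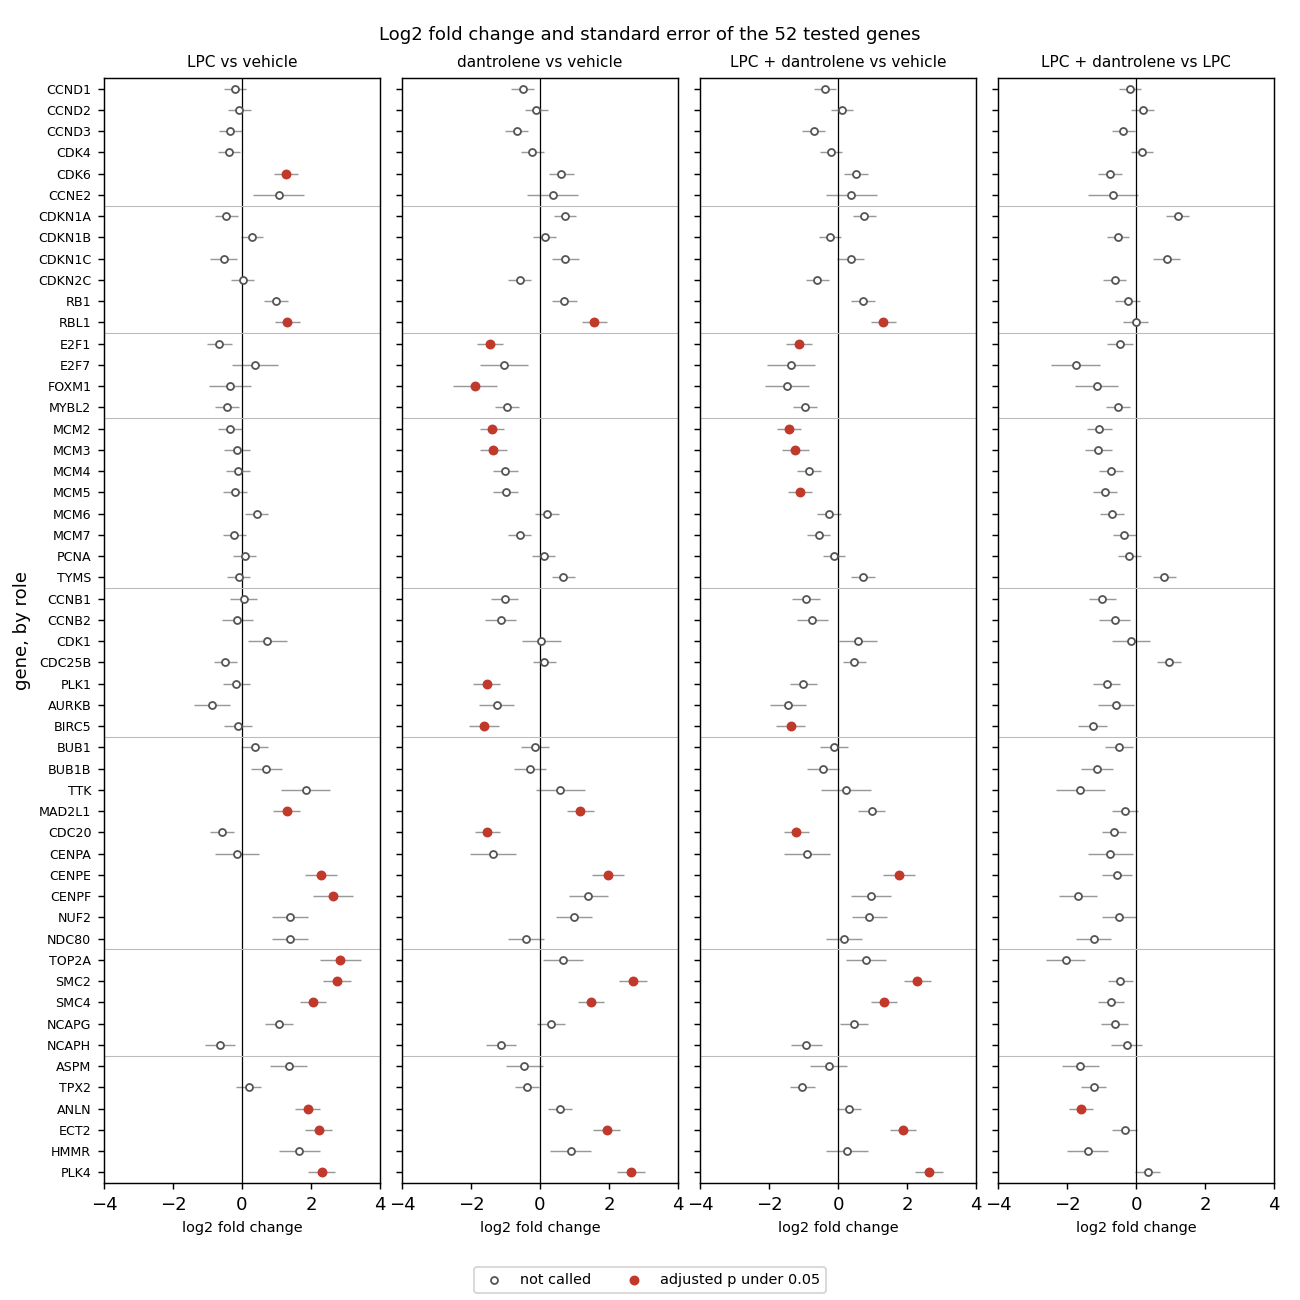
Log2 fold change with its standard error (horizontal axis) of the 52 tested genes (vertical axis, by role) in 4 comparisons, with red points for adjusted p under 0.05. The points of E2F1, MCM2 and PLK1 lie left of 0 with dantrolene and with both agents, those of SMC2, ECT2 and PLK4 lie right of 0 in all 3 comparisons with vehicle, and ANLN is the 1 red point in LPC + dantrolene against LPC.

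LPC + dantrolene against LPC asks what dantrolene changed in cells that also received LPC. Of 52 members, 0 rose and 1, ANLN, fell, against 0.219% of all genes that rose and 0.288% that fell. ANLN was 3.01-fold lower with both agents than with LPC (log2 difference −1.59 ± 0.36, adjusted p = 0.00987), and lower in 3 of 3 pairs of the same isolation. The call was lost without any LPC library or LPC + dantrolene replicate 3 (0.0808 to 0.142), with the isolation as a block (0.076), with total counts alone (0.197) and with the compared groups alone (0.106). Without LPC + dantrolene replicate 1 the count was 4, without LPC replicates 1 or 2 it was 0, without vehicle replicate 3 it was 3, and without dantrolene replicate 3 or LPC + dantrolene replicate 2 it was 2. Over all genes the counts were 120, 31, 9, 86, 80 and 140 in turn, against 67 in the fit of all 12 libraries.

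Below the threshold the members leaned one way in that comparison. At an unadjusted p under 0.05, 4 members were higher and 19 lower, against 3.34% and 3.27% of all genes, and in 16 members (30.8%) every LPC + dantrolene library lay below every LPC library and in 4 (7.69%) above, against 4.93% and 4.86% of all genes. The median log2 difference of the members was −0.62, against 0.02 over all genes, and it was negative in each role group, from −1.31 in the spindle, centriole and cytokinesis genes to −0.13 in the inhibitors and pocket proteins. TOP2A, at 0 counts in LPC + dantrolene replicate 2, had the lowest value, −2.04 ± 0.58 (adjusted p = 0.0899). That p moved far with the setting. It passed without vehicle replicate 3 (0.000278), LPC replicate 3 (0.000601), dantrolene replicate 3 (0.000565) or LPC + dantrolene replicates 1 or 3 (0.0483 and 0.00717) and with no filter on low counts (0.000475), and it was 0.884 with DESeq2's Wald test and 0.654 with the isolation as a block.

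Dantrolene against LPC, added after the data were seen, gave 0 members called, against 0.113% of all genes called higher and 0.212% called lower. This comparison uses the same LPC libraries as LPC + dantrolene against LPC, so the lean in each is not independent of the other. In dantrolene against LPC, at an unadjusted p under 0.05, 3 members were higher and 18 lower, against 1.92% and 2.48% of all genes. All dantrolene libraries lay below all LPC libraries in 15 members (28.8%) and above them in 3 (5.77%), against 4.68% and 5.18% of all genes. Its median log2 difference was −0.59, against 0.02 over all genes. ANLN was at −1.34 ± 0.35 (adjusted p = 0.0715) and TOP2A, with 1 count in dantrolene replicate 1, at −2.18 ± 0.58 (adjusted p = 0.0746). TOP2A passed without vehicle replicate 3 (8.98e-05), LPC replicate 3 (0.000129), dantrolene replicates 2 or 3 (0.00628 and 0.0238) or LPC + dantrolene replicates 2 or 3 (0.00628 and 7.23e-05). The count was 7 without LPC + dantrolene replicate 2, 3 without vehicle replicate 3 or LPC + dantrolene replicate 3, 2 without dantrolene replicate 2, and 1 without LPC replicate 3 or dantrolene replicate 3. Over all genes the counts were 92, 58, 62, 18, 26 and 27 in turn, against 43 in the fit of all 12 libraries. DESeq2's Wald test called 1 member, CDKN1A. LPC + dantrolene against dantrolene, the effect of LPC in cells that also received dantrolene, gave 0 members called by edgeR or DESeq2 and 0 at an unadjusted p under 0.05. Of all genes 0.0151% were called higher and 0.00757% lower, 0.0227% together. In 0 members did the libraries not overlap, against 2.54% of all genes higher and 2.17% lower.

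The interaction is the log2 effect of LPC with dantrolene less its effect without dantrolene. It was called below 0 in 8 members (15.4%) and above 0 in 0, against 4.49% and 0.159% of all genes, 4.65% together. Over all 52 members, called or not, the values ran from −3.16 to 0.99. The members called were CENPE, CENPF, TOP2A, SMC2, SMC4, ANLN, ECT2 and PLK4, all of which rose with LPC. By its construction this value also equals the log2 effect of dantrolene with LPC less its effect without LPC. It is negative for a gene that dantrolene lowered more, or raised less, with LPC than without it. This includes a gene that each agent alone raised to the level seen with both. Set beside the interaction, the log2 difference of LPC + dantrolene from LPC was −1.59 for ANLN, −2.04 for TOP2A and −1.67 for CENPF, and −0.54 for CENPE, −0.73 for SMC4, −0.46 for SMC2, −0.33 for ECT2 and 0.34 for PLK4. Of these differences ANLN alone passed the test. Without LPC replicate 2 the 8 values ran from −3.21 to −1.97 and 0 passed, as the count over all genes went from 614 to 4. The count was 1 without dantrolene replicate 2, 5 without vehicle replicate 2 or LPC replicate 1, and 5 with the isolation as a block. Over all genes the counts were 34, 228, 267 and 280 in turn.

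Averaged over the genes of a role group, the mean of log2(CPM + 1) shows the same split by library. For the condensin and topoisomerase genes it was 2.03 to 2.59 in the vehicle libraries, 3.60 to 3.97 with LPC, 2.18 to 3.65 with dantrolene and 1.92 to 3.39 with both. For the spindle, centriole and cytokinesis genes it was 2.38 to 2.81, 3.71 to 4.17, 2.74 to 3.93 and 2.02 to 3.63 in turn. In both groups of genes LPC stood above vehicle without overlap, the dantrolene libraries reached from the vehicle level into the LPC range, and the LPC + dantrolene libraries stayed below LPC. For the transcription factors it was 2.84 to 3.50 with vehicle, 2.26 to 3.27 with LPC, 2.00 to 2.54 with dantrolene and 2.04 to 2.63 with both, so the groups with dantrolene lay below vehicle and overlapped LPC.

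**Figure D4:**
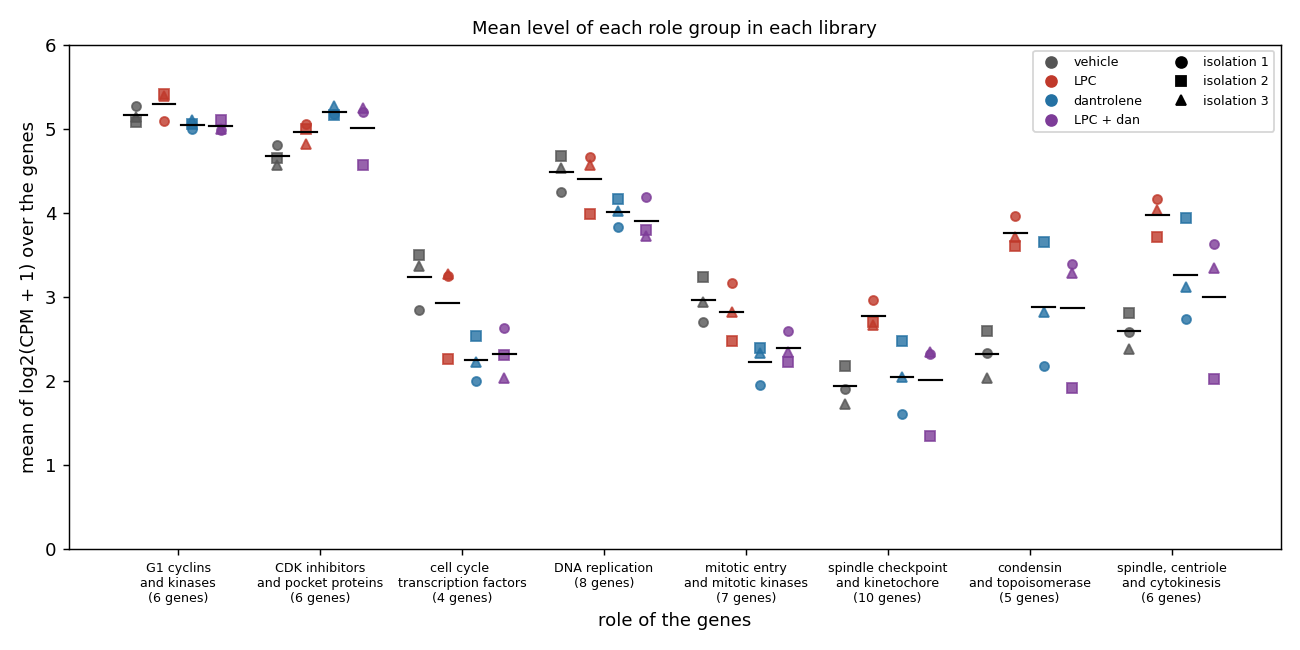
Mean of log2(CPM + 1) over the tested genes (vertical axis) by role group (horizontal axis), 1 point per library, with a colour for each treatment group, a symbol for each isolation and a line at the group mean. The LPC means are the highest for the 3 role groups on the right, and vehicle libraries are above both groups with dantrolene for the transcription factors.

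The fold changes of the members moved with the length of the gene. Over 51 members with a RefSeq locus and 1 name, the Spearman correlation of the genomic length of the gene with the log2 fold change was 0.609 with LPC, 0.411 with dantrolene and 0.379 with both agents. Over 10802 genes of the table it was 0.277, 0.266 and 0.246. These are descriptions across genes, which share their libraries and are not independent, and the part of gene length in the changes was not tested.

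A further 115 cell cycle genes outside the list were tested. With LPC 12 rose and 1 fell, with dantrolene 9 rose and 4 fell, and with both agents 6 rose and 2 fell. The shares that rose, 10.4%, 7.83% and 5.22%, stood beside 8.54%, 7.54% and 6.23% of all genes, and those that fell, 0.870%, 3.48% and 1.74%, beside 0.144%, 1.26% and 0.900%. Their median log2 fold changes were 0.04, −0.11 and −0.13, against −0.18, −0.11 and −0.08 over all genes. Those with the smallest adjusted p with LPC were CDC27, a subunit of the anaphase-promoting complex (log2 fold change 1.76 ± 0.37, adjusted p = 0.000246), the spindle protein DLGAP5 (2.47 ± 0.53, adjusted p = 0.000396) and LIN9 of the MuvB complex (2.69 ± 0.59, adjusted p = 0.000505). With dantrolene they were the centromere protein CENPC, which rose (1.72 ± 0.38, adjusted p = 0.000794), POLE, the catalytic subunit of DNA polymerase epsilon, which fell (−1.77 ± 0.41, adjusted p = 0.00157), and CDC27 (1.502 ± 0.36, adjusted p = 0.00233).

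POLE was at 10.6 ± 2.24 CPM (SD, n = 3) with vehicle, 8.28 ± 2.59 with LPC, 3.10 ± 1.05 with dantrolene and 1.98 ± 1.23 with both. With both agents POLE fell (log2 fold change −2.42 ± 0.43, adjusted p = 3.82e-05), the origin recognition subunit ORC4 rose (1.52 ± 0.35, adjusted p = 0.00155), and LIN9 rose (2.45 ± 0.59, adjusted p = 0.00223). POLE was also lower with both agents than with LPC (−2.06 ± 0.43, adjusted p = 0.00386), the 1 gene of the 115 called there. UHRF1, which recruits the maintenance DNA methyltransferase, was lower with dantrolene than with LPC (−2.02 ± 0.45, adjusted p = 0.0112). The interaction was called below 0 for CENPC, CDC27, LIN9 and CENPH, 3.48% of the 115, against 4.49% of all genes. In LPC + dantrolene against dantrolene 0 of the 115 were called, against 0.0227% of all genes.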

How the data were processed

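Poly(A) RNA of paVICs was sequenced, 1 library per isolation and group. The counts were deposited by the authors as whole numbers per gene, after alignment, counting and adjustment for the isolation with ComBat, so they differ from raw counts. No degrees of freedom were charged for that step in the fits below, and adjusted p-values can therefore be too small. The paper names STAR as the aligner, whereas the submitters' processing notes name HISAT2 2.0.5, R 4.1.1, DESeq2 1.32.0 and the build Sscrofa11.1. The authors' 4 tables of their own comparisons (fold changes and p-values) were not used.

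Counts were fitted in R 4.3.3 with edgeR 4.0.16 (quasi-likelihood test, TMM factors, filterByExpr with the 4 groups, group as the only term, all 12 libraries in 1 fit). A call needed an adjusted p (Benjamini-Hochberg, over all 13216 genes tested) under 0.05, and the procedure was tested on simulated data. CPM values are TMM-scaled and are not corrected for gene length. Levels were compared between genes only to pick the member with the highest CPM of each role group. That ranking is not corrected for length either. Intervals from counts would cover counting error only. The interaction and 5 comparisons were planned, and dantrolene against LPC was added after the data were seen.

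The members and lists were chosen with earlier results of these data known. Values by library are given for members called in any planned comparison and for the member with the highest CPM of each role group. Of the other genes, those with the 3 smallest adjusted p-values among the calls of a comparison are named, and further members are named by counts and ranges. GTSE1, TTK, NCAPG and others outside this rule were chosen after their values were seen. Symbols came from the count table, where 15410 genes carry none. Of 124 other cell cycle genes, 110 matched there and 6 through the table of gene names. Coordinates are from the RefSeq table of the same build, in which all 54 members were found by symbol.

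The labels name the isolation of each library, which the paper gives as a separate experiment, so libraries of the same number were taken as pairs. Deviations from the group means correlated with a median of −0.152 (range −0.536 to 0.207) within an isolation and 0.108 across isolations. The adjustment for the isolation fixes this outcome, so it says nothing of the pairing. Each result was recomputed with each library left out in turn, with the isolation as a block, with the compared groups alone, with an adjusted p under 0.1 as the threshold, without the low count filter or with at least 10 counts in every library, after scaling by total counts or by RLE factors, and with DESeq2 1.42.0 (Wald test). Sequences of promoters and proteins were not used here.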

Additional observations from a re-analysis of the deposited data

Results flagged for a closer look

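The effect of LPC differed between cells with and without dantrolene, by the interaction term of edgeR's quasi-likelihood test, for 8 members. The LPC effect in dantrolene-treated cells minus that in the other cells, in log2 units, was −2.50 for CENPE (adjusted p = 0.00846), −3.08 for CENPF (0.0101), −2.72 for TOP2A (0.0331), −3.16 for SMC2 (0.000174), −2.21 for SMC4 (0.00486), −2.16 for ANLN (0.00361), −2.26 for ECT2 (0.00387) and −2.29 for PLK4 (0.0044). Without LPC replicate 2 none of the 8 passed (adjusted p = 0.0658 to 0.353), while their values ran from −3.21 to −1.97 and were below −2 for all but CENPE. Over all genes 4 passed there, against 614 with all libraries. Without dantrolene replicate 2 SMC2 alone passed, 34 genes passed in all, and the values of the other 7 ran from −2.29 (CENPE) to −1.06 (TOP2A). CENPF and TOP2A were the least stable, with 9 of 17 and 8 of 17 alternatives keeping the call.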

How the results depend on the processing

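In 1726 values of the named members under alternative settings, 1502 kept their direction and side of the threshold, 157 lost the call, 48 gained it and 19 changed sign, and none of those that changed sign was called in either setting. The number of members called with LPC against vehicle was 18 with the compared groups alone and 7 to 18 with a library left out. With dantrolene it was 8 to 21 with a library left out. With both agents it was 3 with the compared groups alone, 6 with the isolation as a block and 4 to 23 with a library left out. For LPC + dantrolene against LPC it was 2 with DESeq2, no filter or at least 10 counts in every library, 0 with total counts, the compared groups or the replicate block, 3 at an adjusted p under 0.1, and 0 to 4 with a library left out. For LPC + dantrolene against dantrolene it was 0 in every alternative. For the interaction it was 5 with total counts or the replicate block and 0 to 10 with a library left out. For dantrolene against LPC it was 1 with DESeq2, 3 with no filter, 2 with at least 10 counts in every library, 2 at an adjusted p under 0.1, and 0 to 7 with a library left out. The causes were not tested. Beyond the calls given in the report and CENPE (0.0675), CENPF (0.133) and TOP2A (0.23) in the interaction, the block changed no call of a named member.

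Scaling by total counts alone moved the median log2 fold change of all genes from −0.18 to −0.0023 with LPC, from −0.11 to 0.13 with dantrolene and from −0.08 to 0.12 with both agents, and that of the members from 0.13 to 0.31, from −0.12 to 0.12 and from −0.17 to 0.09. Sign changes were as follows. With LPC, total counts gave 0.0663 for BIRC5, 0.0207 for MCM3 and 0.0107 for PLK1. With a library left out, BIRC5 ranged from −0.36 to 0.16, FOXM1 from −0.75 to 0.10, MCM3 from −0.27 to 0.0339, MCM5 from −0.42 to 0.0935 and PLK1 from −0.34 to 0.0787, above 0 without LPC replicate 2 (BIRC5 0.0109, MCM5 0.00102), and for BIRC5 also without vehicle replicate 2 and MCM5 without vehicle replicate 3. With dantrolene, CDC25B ranged from −0.0510 (without vehicle replicate 1) to 0.40, CENPF from −0.0875 to 1.88 and TOP2A from −0.98 to 1.28, both lowest without dantrolene replicate 2. With both agents, MCM6 was at 0.0141 with total counts and ranged from −0.50 to 0.16 (without LPC + dantrolene replicate 2), and ANLN ranged from −0.10 to 0.66 and TOP2A from −0.0683 to 1.44, both lowest without LPC + dantrolene replicate 1. For LPC + dantrolene against LPC, ECT2 ranged from −0.62 to 0.0279 (without LPC + dantrolene replicate 2) and PLK4 from −0.0682 (without LPC + dantrolene replicate 3) to 0.77. The 3 libraries per group limit every call, and members near or under 1 CPM rest on few counts. The planned search for promoter motifs and the comparison with protein length were not run.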
